A study of Arabidopsis thaliana with 33 samples.

Results

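HEME2, CHLI2, CHLM and PORB are 4 nuclear genes of chlorophyll synthesis, taken here over all 8 groups of an Arabidopsis leaf array study. They were chosen by name, as steps that lead from uroporphyrinogen to the reduction of protochlorophyllide, and each is read from 1 probe set that names a single gene. They are 4 of 6898 single-gene probe sets and of 12772 probe sets tested. The choice was made with earlier results of these arrays known, among them low values at elevated CO2, so every comparison of CO2 levels below is a description without a test. The comparisons of midday with midnight and of nitrogen supplies averaged over CO2 were tested. Whether results by time or nitrogen were also known at the choice is not stated, so these p-values may not be independent of it. Tests of midday against midnight within single growth conditions share arrays with the CO2 comparisons, so they are read as description.

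Chlorophyll is built in the plastid from glutamate. Glutamate is turned into 5-aminolevulinic acid, molecules of which are joined into the porphyrin ring, and the path then divides: insertion of iron leads to heme, insertion of magnesium to chlorophyll. Synthesis in leaves follows the light, since in flowering plants the reduction of protochlorophyllide needs light, and free intermediates are phototoxic, so the path is known for tight control.

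HEME2 (AT2G40490, probe set 255826_at) encodes uroporphyrinogen decarboxylase, which acts before the heme and chlorophyll branches part. CHLI2 (AT5G45930, 248920_at) encodes the less abundant of 2 forms of the I subunit of magnesium chelatase, the ATPase that drives magnesium insertion. CHLM (AT4G25080, 254105_at) encodes magnesium protoporphyrin IX methyltransferase, the step after magnesium insertion. PORB (AT4G27440, 253871_at) encodes a light-dependent protochlorophyllide oxidoreductase, a form of that enzyme known to be expressed in green leaves. All 4 lay above the array median: 97.87% of probe sets had a lower mean than CHLM, 93.17% a lower mean than PORB, 89.33% a lower mean than HEME2 and 76.57% a lower mean than CHLI2. Array levels of different probe sets cannot be compared per transcript, so these shares describe brightness only.

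The plants were Arabidopsis thaliana Col-0 grown in chambers with 10 h of light and 14 h of dark at 750 ppm (elevated) or 370 ppm (ambient) CO2, fed 0.25 mM (limiting) or 6 mM (ample) NH4NO3, and the youngest fully expanded leaf was taken on day 35 at midday or at midnight. At limiting nitrogen there were 4 arrays at elevated and 4 at ambient CO2 at each time. At ample nitrogen and midday there were 3 arrays at elevated and 4 at ambient CO2, and at ample nitrogen and midnight 5 and 5. That gives 15 midday and 18 midnight arrays, 33 in all, and their number limits the precision. The values are on a log2 scale on which every array has a median of 0, so each is a level relative to its own array and a difference of 1 is a doubling. Nothing in the labels ties replicates to separate plants, pools or chambers; p-values therefore cover only the spread among these samples, which may be technical. In bulk leaf RNA, fewer green cells and less RNA per cell cannot be told apart.

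Of 27 marker loci for leaf cell types and senescence, 3 were measured. The mesophyll genes RCA (Rubisco activase) and LHCB4.2 (a light-harvesting protein) lay between 5.32 and 6.70 and between 2.21 and 6.34 over the 33 arrays, and the guard-cell gene FMA lay between -2.90 and -1.02. The phloem, epidermis, senescence and root markers of the list were not analysed here, so those cell types were not checked. Ambient ample midnight replicate 4 stood apart, at a root mean square distance of 0.68 from its group mean, scaled for group size. Its 3′ to 5′ log2 ratio was 4.41 over 6 pairs of control probe sets, against at most 2.35 in the other 32 arrays. Elevated limiting midnight replicate 1 was the next farthest, at 0.52, and it was the lowest array of all 33 for each of the 4 genes, with 1.42 for HEME2, 0.23 for CHLI2, 2.63 for CHLM and 1.59 for PORB. Results that rest on these arrays are given with and without them, except for scaling on control probe sets, which used all arrays.

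**Figure D1:**
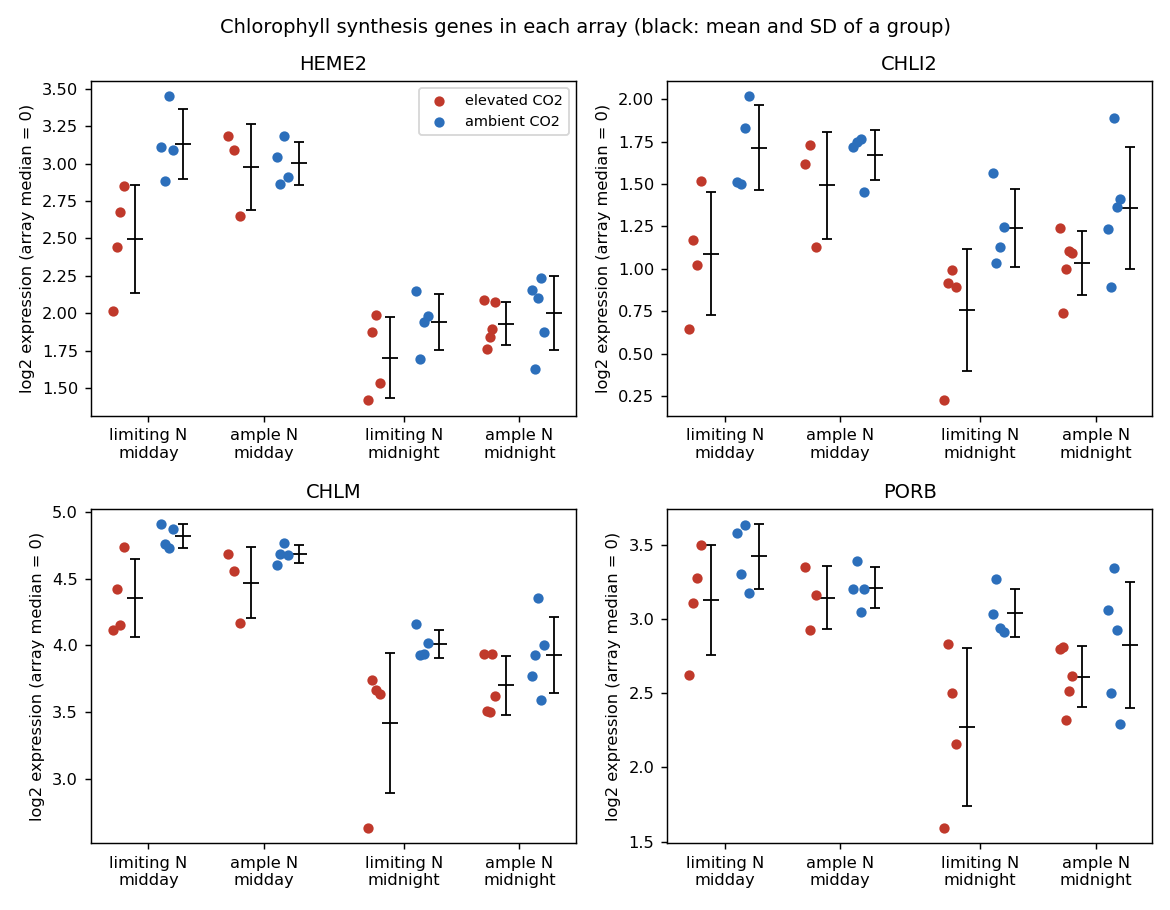
Log2 expression of HEME2, CHLI2, CHLM and PORB (array median at 0, separate vertical scale for each gene, not starting at 0) in each of 33 arrays, by nitrogen supply and time, with elevated CO2 in red left of ambient CO2 in blue. Points are arrays and black marks are the group mean with its SD. HEME2 and CHLM midday arrays lie above the midnight arrays in every growth condition, and 1 array at elevated CO2, limiting nitrogen and midnight lies lowest for all 4 genes.

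The first question was how far leaf transcripts of the 4 genes differed between the light and the dark period. All 4 were higher at midday when the difference was averaged over the 4 growth conditions, and all 4 passed limma's adjusted p of 0.05. At that threshold 64.5% of probe sets passed in either direction and 33.4% passed as higher at midday, so passing is in itself common here. The members' median log2 difference was 0.68, against 0.02 over all probe sets. These directions hold with each array scaled on its median, by quantiles or on the spiked polyadenylated controls, but with arrays scaled on the hybridisation controls the averages of CHLI2 and PORB turned negative, as described below.

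HEME2 had the largest difference of the 4. Its midday arrays at elevated CO2 and limiting nitrogen had 2.01, 2.44, 2.68 and 2.85, against midnight arrays at 1.42, 1.88, 1.99 and 1.53. Under elevated CO2 with ample nitrogen HEME2 had 3.19, 3.09 and 2.65 at midday, against 2.09, 1.76, 1.84, 1.89 and 2.07 at midnight. In ambient CO2 with limiting nitrogen it had 3.11, 2.88, 3.45 and 3.09 at midday, against 2.15, 1.69, 1.94 and 1.98 at midnight. The midday and midnight arrays did not overlap in any of these 3 conditions, and in the first the gap was narrow, from 2.01 for the lowest midday array to 1.99 for the highest midnight array. The ambient, ample midday values were 3.05, 2.86, 3.19 and 2.91, against 2.15, 1.63, 2.10, 2.24 and 1.88 at midnight, also without overlap. Averaged over conditions the log2 difference was 1.01 (SE 0.09, 95% interval 0.83 to 1.19), a 2.01-fold change, with a limma adjusted p of 1.32e-11.

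CHLM, the methyltransferase, followed. Its midday arrays at elevated CO2 and limiting nitrogen had 4.11, 4.42, 4.15 and 4.74, against 2.63, 3.74, 3.67 and 3.63 at midnight. The elevated, ample midday arrays had 4.68, 4.56 and 4.17, against 3.94, 3.51, 3.50, 3.94 and 3.62 at midnight. In ambient CO2 with limiting nitrogen the midday arrays lay within a narrow range, at 4.91, 4.76, 4.73 and 4.87, against 4.16, 3.93, 3.94 and 4.02 at midnight. The times did not overlap here or in the 2 conditions before. With ample nitrogen at ambient CO2, CHLM had 4.61, 4.69, 4.77 and 4.67 at midday, against 3.77, 3.93, 4.36, 3.59 and 4.00 at midnight, again without overlap. The average log2 difference was 0.82 (SE 0.10, 95% interval 0.62 to 1.01), a 1.76-fold change (limma adjusted p = 8.22e-09).

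PORB, the light-dependent reductase, had a smaller average difference and a wider scatter. Under elevated CO2 with limiting nitrogen it had 2.63, 3.11, 3.28 and 3.50 at midday, against 1.59, 2.84, 2.50 and 2.16 at midnight, and 1 midnight array lay above the lowest midday array. With ample nitrogen at elevated CO2 it had 3.35, 2.93 and 3.17 at midday, against 2.80, 2.82, 2.32, 2.52 and 2.62 at midnight, without overlap. In ambient, limiting leaves PORB had 3.58, 3.31, 3.64 and 3.18 at midday, against 3.04, 3.27, 2.94 and 2.92 at midnight, where the ranges met. In ambient, ample leaves it had 3.21, 3.40, 3.05 and 3.20 at midday, against 3.07, 2.51, 3.35, 2.93 and 2.29 at midnight, with overlap. The average log2 difference was 0.54 (SE 0.11, 95% interval 0.32 to 0.76), a 1.46-fold change (limma adjusted p = 7.18e-05).

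CHLI2, the chelatase subunit, had the smallest difference, and its times overlapped in all 4 conditions. In elevated, limiting leaves CHLI2 had 0.65, 1.17, 1.02 and 1.52 at midday, against 0.23, 0.92, 0.99 and 0.90 at midnight. In elevated, ample leaves it had 1.62, 1.73 and 1.13 at midday, against 1.24, 0.74, 1.00, 1.10 and 1.09 at midnight. At ambient CO2 and limiting nitrogen it had 1.51, 1.50, 1.83 and 2.02 at midday, against 1.56, 1.04, 1.13 and 1.25 at midnight. In each of these conditions 1 or more midnight arrays reached above the lowest midday array. At ambient CO2 and ample nitrogen it had 1.72, 1.75, 1.76 and 1.45 at midday, against 1.24, 0.90, 1.89, 1.37 and 1.41 at midnight, and the highest of these 9 arrays was a midnight one. The average log2 difference was 0.39 (SE 0.10, 95% interval 0.19 to 0.60), a 1.31-fold change (limma adjusted p = 0.000978).

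Within single growth conditions, HEME2 and CHLM passed in all 4. These tests share arrays with the CO2 comparisons known when the genes were chosen. Their calls and p-values are therefore not independent of that choice and are descriptive. PORB passed only at elevated CO2 and limiting nitrogen, with a log2 difference of 0.86 (SE 0.22, limma adjusted p = 0.00278), and CHLI2 passed in none, with limma adjusted p between 0.0656 and 0.203. So 3 of the 4 genes were called higher at elevated CO2 and limiting nitrogen, where 18.7% of probe sets were called higher, and 2 in each of the other conditions. The share of probe sets called higher there was 17.7% at elevated CO2 and ample nitrogen, 18.6% at ambient CO2 and limiting nitrogen and 19.9% at ambient CO2 and ample nitrogen. For non-overlapping arrays with midday on top, which held for HEME2 and CHLM in all 4 conditions and for PORB in 1, the shares over all probe sets were 16.4%, 18.4%, 21.1% and 14.1% in the same order of conditions. The call of PORB at elevated CO2 and limiting nitrogen was kept without each of the 33 arrays in turn, with adjusted p up to 0.0236. Other results of CHLI2 and PORB that missed the threshold passed it when single arrays were left out. CHLI2 passed at ambient CO2 and limiting nitrogen without ambient limiting midnight replicate 1 (0.58), elevated limiting midnight replicate 1 (0.47) or ambient ample midnight replicate 3 (0.47), and at elevated CO2 and ample nitrogen without elevated ample midday replicate 3 (0.64). PORB passed at elevated CO2 and ample nitrogen without elevated limiting midnight replicate 1 (0.54), and at ambient CO2 and ample nitrogen without ambient ample midnight replicate 3 (0.52). With elevated limiting midnight replicate 1 left out, the time difference at elevated CO2 and limiting nitrogen was 0.15 for CHLI2, 0.68 for CHLM and 0.63 for PORB, against 0.33, 0.94 and 0.86 with all arrays. CHLM did not pass at ambient CO2 and limiting nitrogen under quantile normalization (0.47, limma adjusted p = 0.0523) or at elevated CO2 and ample nitrogen with polyadenylated controls (0.60, adjusted p = 0.0642). With hybridisation controls 1 call was left in the 4 conditions, that of HEME2 at ambient CO2 and ample nitrogen. The difference of HEME2 at elevated CO2 and limiting nitrogen was then -0.04. That scaling lowered time differences by 0.14 at ambient CO2 and ample nitrogen, and by 0.58 to 0.83 in the other conditions. Ambient ample midnight replicate 4 had hybridisation controls at 4.22, against 2.12 to 2.84 in the rest of its group. Whether the call holds without that array under this scaling was not tested. Whether the time difference itself varied with CO2 was not tested.

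The control probe sets moved with time of day. The 14 hybridisation controls are added to every array in a fixed amount before hybridisation. Their mean lay between 2.54 and 3.19 in midday arrays (median 2.89). In midnight arrays it lay between 1.75 and 4.22 (median 2.17), and reached only 2.84 without ambient ample midnight replicate 4. The 3′ to 5′ log2 ratio lay between 1.46 and 1.94 at midday. At midnight it lay between 1.72 and 4.41, and reached only 2.35 without that array. The mean of 23 polyadenylated controls overlapped, from -0.77 to 0.07 at midday and from -1.14 to 0.13 at midnight. Scaling each array on its hybridisation controls shifted every time difference averaged over conditions down by 0.57, and the median of all probe sets fell to -0.55, against 0.02 with array medians. The numbers of probe sets called were then 946 higher and 8495 lower at midday, against 4272 higher and 3971 lower with array medians. Under that scaling HEME2 kept a called difference of 0.44 (limma adjusted p = 0.00765), CHLM had 0.25 (adjusted p = 0.17), PORB -0.03 (adjusted p = 0.87) and CHLI2 -0.18 (adjusted p = 0.291). These averages and the shift of 0.57 include ambient ample midnight replicate 4, with its controls at 4.22. Whether they hold without that array was not tested. Relative to the median of all probe sets the 4 genes still lay above it, since this scaling moves all probe sets of an array together. With polyadenylated controls the 4 averages were 1.04, 0.85, 0.57 and 0.42 for HEME2, CHLM, PORB and CHLI2, all called. The part of the controls' shift in the time difference was not tested.

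**Figure D2:**
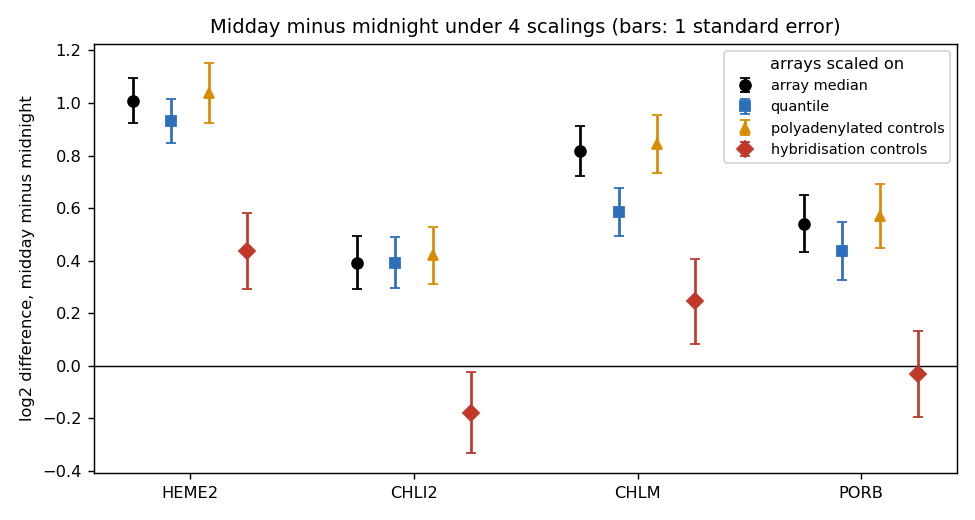
Log2 difference of midday minus midnight, averaged over 4 growth conditions, for each gene under 4 scalings of the arrays, with bars of 1 standard error from limma (15 midday and 18 midnight arrays). With array medians, quantiles or polyadenylated controls all 4 genes lie above 0, and with hybridisation controls CHLI2 (-0.18) and PORB (-0.03) lie below 0. All 4 scalings include ambient ample midnight replicate 4.

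Differences between the genes do not depend on how an array is centred, because a shift of an array cancels between 2 of its probe sets. They can change under quantile normalization, which does not move all probe sets of an array alike. For each of the 6 pairs of genes the difference of their time differences was tested by 100000 permutations of midday and midnight labels within growth conditions, two-sided, with Benjamini-Hochberg adjustment over the 6 pairs. The time difference of HEME2 exceeded that of CHLI2 by 0.62 on the log2 scale (adjusted p = 3e-05, with a raw p of 1e-05, the smallest these permutations can give) and that of PORB by 0.47 (adjusted p = 0.00022). CHLI2 minus CHLM gave -0.42 (adjusted p = 3e-05, with the same smallest raw p). This difference was smaller under quantile normalization, where CHLI2 stayed at 0.39 and CHLM fell from 0.82 to 0.59. CHLM exceeded PORB by 0.28 (adjusted p = 0.0145), but under quantile normalization the excess was 0.15 and no longer passed (adjusted p = 0.163). HEME2 minus CHLM was 0.19 (SE 0.09, permutation adjusted p = 0.0643) and CHLI2 minus PORB was -0.15 (SE 0.10, permutation adjusted p = 0.195), neither past the threshold. HEME2 minus CHLM passed under quantile normalization, at 0.35 (permutation adjusted p = 0.0042), and without both arrays that stand apart, at 0.27 (permutation adjusted p = 0.0027). It also passed without elevated limiting midnight replicate 1 (0.23), elevated limiting midday replicate 1 (0.21), ambient ample midnight replicate 1 (0.21) or ambient ample midnight replicate 4 (0.23).

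The order of the genes was not the same in every condition. HEME2 exceeded PORB by 0.51 at elevated CO2 and ample nitrogen, by 0.81 at ambient CO2 and limiting nitrogen and by 0.62 at ambient CO2 and ample nitrogen. At elevated CO2 and limiting nitrogen the same quantity was -0.07, and HEME2 minus CHLM was -0.15 there and above 0 in the other 3 conditions. CHLI2 had a smaller time difference than CHLM in all 4 conditions, by -0.61, -0.31, -0.34 and -0.44 in the order elevated limiting, elevated ample, ambient limiting and ambient ample. These per-condition values are given without a test.

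The other genes of the pathway did not all share the midday direction. The lists of the pathway name 60 loci, of which 10 were measured by a single-gene probe set, the 4 genes and 6 others. The 6 others are 2 of 8 loci for aminolevulinic acid synthesis, 2 further loci of 10 from aminolevulinic acid to protoporphyrin, 1 further locus of 15 in the magnesium branch and 1 of 10 for chlorophyll breakdown. The 6 heme and siroheme loci and 11 regulators of the lists were not analysed here. In the average over conditions all 6 passed, 3 higher and 3 lower at midday, where 33.4% of probe sets passed as higher and 31.1% as lower.

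The 3 genes lower at midday all act before HEME2. HEMA2, a glutamyl-tRNA reductase gene of the first committed step, lay between -2.72 and -1.37 in midday arrays and between -1.48 and -0.47 in midnight arrays, a log2 difference of -0.87 (SE 0.10, limma adjusted p = 2.91e-09). GSA1, the aminotransferase that completes aminolevulinic acid, had a difference of -0.23 (adjusted p = 0.0182), and HEMB1, the dehydratase that joins its molecules, had -0.21 (adjusted p = 0.0116). All 3 stayed negative under each scaling tried, but GSA1 and HEMB1 no longer passed with polyadenylated controls (adjusted p = 0.124 and 0.204). HEMA2 is one of several glutamyl-tRNA reductase genes and is known as the form less tied to green tissue. HEMA1, the form tied to chlorophyll synthesis, was not analysed here.

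The 3 genes higher at midday act at the decarboxylase step, on the phytyl side chain and in chlorophyll breakdown. HEME1, the second uroporphyrinogen decarboxylase gene, had a midday median of 1.89 and a midnight median of 0.45, a log2 difference of 1.31 (SE 0.12, limma adjusted p = 2.89e-11). AT1G74470, geranylgeranyl reductase, which makes the phytyl side chain, had a difference of 1.18 (adjusted p = 2.66e-12). NOL, a subunit of chlorophyll b reductase, which acts in chlorophyll breakdown, had 0.71 (adjusted p = 3.12e-09). All 3 were positive under each scaling tried, and NOL alone of them did not pass with hybridisation controls, at 0.14 (adjusted p = 0.377). For comparison the mesophyll markers RCA and LHCB4.2 had time differences of 0.55 and 2.76, so that the 4 genes lay between 0.39 and 1.01 in leaves whose LHCB4.2 probe set moved much farther. RCA had -0.02 with hybridisation controls and 0.08 under quantile normalization (limma adjusted p = 0.156).

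**Figure D3:**
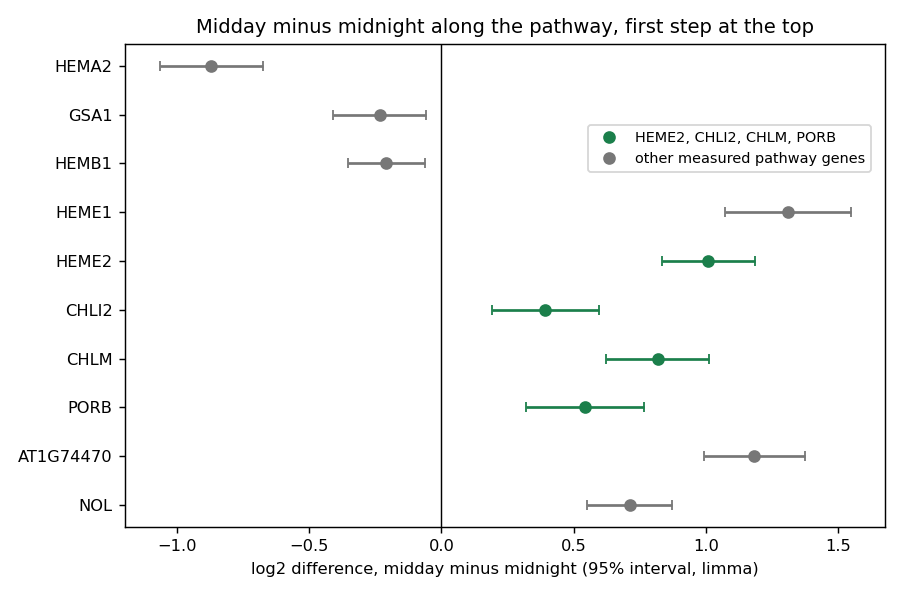
Log2 difference of midday minus midnight, averaged over 4 growth conditions with arrays scaled on their medians, for the 10 measured pathway genes, listed from aminolevulinic acid synthesis at the top to chlorophyll breakdown at the bottom, with 95% intervals from limma. HEMA2 (-0.87), GSA1 (-0.23) and HEMB1 (-0.21) lie below 0 and the 7 genes listed from HEME1 down lie above it. With hybridisation controls CHLI2 and PORB fell below 0.

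The next question was whether nitrogen supply moved the 4 genes. None of the 4 passed limma's threshold for limiting against ample nitrogen averaged over CO2 and time, at midday, at midnight, or in the difference between the times, and 0 had an unadjusted p under 0.05. Few probe sets passed at all: 1.41% in the average, 0.227% at midday, 1.38% at midnight and 0.102% in the difference between times. In the average HEME2 had 2.32 at limiting and 2.48 at ample nitrogen, a log2 difference of -0.16 (SE 0.09, 95% interval -0.34 to 0.02, limma adjusted p = 0.431). CHLI2 had 1.20 at limiting and 1.39 at ample nitrogen, a difference of -0.19 (95% interval -0.39 to 0.02, adjusted p = 0.418). The intervals of both lay mostly below 0. CHLM had 4.15 and 4.20, a difference of -0.05 (95% interval -0.24 to 0.15, adjusted p = 0.884). PORB had 2.97 and 2.95, a difference of 0.02 (95% interval -0.21 to 0.24, adjusted p = 0.966), and the signs for CHLM and PORB changed between alternatives. Those of HEME2 and CHLI2 turned with hybridisation controls, at 0.05 and 0.02. These intervals reach down to -0.39 on the log2 scale, so a small effect was not detectable with this number of arrays.

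The averages over CO2 combined unlike values, which are given here without a test because the limiting arrays are those of the CO2 comparison. At elevated CO2, with all arrays and median scaling, limiting minus ample nitrogen was below 0 for all 4 genes at both times. At midday it was -0.48 for HEME2, -0.40 for CHLI2, -0.11 for CHLM and -0.02 for PORB, and at midnight -0.23, -0.28, -0.28 and -0.34. The midday value of PORB was 0.15 without elevated limiting midday replicate 1 and 0.07 under quantile normalization. The midnight values without elevated limiting midnight replicate 1 were -0.13, -0.10, -0.02 and -0.11 in the same order of genes. At ambient CO2 the midday values were 0.13, 0.04, 0.13 and 0.21, all above 0, and the midnight values -0.06, -0.12, 0.08 and 0.21. With hybridisation controls those midnight values were 0.57, 0.51, 0.71 and 0.84. They include ambient ample midnight replicate 4, whose hybridisation controls averaged 4.22 against 2.12 to 2.84 in the rest of its group. That scaling was not run without this array. Over all probe sets the median of these differences lay between -0.02 and 0.01.

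The 6 other pathway genes likewise gave 0 calls for nitrogen with limma in any of these comparisons. Averaged over CO2 and time their log2 differences were all below 0, with a median of -0.17, against -0.10 for the 4 genes and -0.01 over all probe sets. The lowest was HEMB1 at -0.22 (adjusted p = 0.123).

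With arrays scaled on their medians, all 4 genes were lower at elevated CO2 in each of the 4 combinations of nitrogen and time, with larger differences at limiting nitrogen. The sign depended on the scaling at ample nitrogen, and for HEME2 also at limiting nitrogen and midnight, as given with each value. At limiting nitrogen and midday the 4 elevated-CO2 arrays had a HEME2 mean of 2.50 ± 0.36, against 3.13 ± 0.24 in the 4 ambient arrays (SD), and the groups did not overlap, with 2.85 as the highest elevated and 2.88 as the lowest ambient array. CHLI2 averaged 1.09 ± 0.36 in elevated and 1.72 ± 0.25 in ambient arrays, CHLM 4.36 ± 0.29 and 4.82 ± 0.09, and PORB 3.13 ± 0.37 and 3.43 ± 0.22, each with overlap. The log2 differences were -0.64 (SE 0.17) for HEME2, -0.63 (SE 0.20) for CHLI2, -0.46 (SE 0.19) for CHLM and -0.30 (SE 0.22) for PORB. Their median was -0.54, against -0.03 over all probe sets, and 6.58% of probe sets had all elevated arrays below all ambient ones in this comparison. The differences of HEME2 and CHLI2 were -0.48 each without elevated limiting midday replicate 1, and that of PORB was -0.13.

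At limiting nitrogen and midnight the order of the genes was turned round. PORB had the largest difference, -0.77 (SE 0.22), with 2.27 ± 0.53 in elevated and 3.04 ± 0.16 in ambient arrays. CHLM had -0.59 (SE 0.19), CHLI2 -0.49 (SE 0.20) and HEME2 -0.24 (SE 0.17). Elevated and ambient arrays did not overlap for PORB, CHLM and CHLI2 and did for HEME2, where 6.01% of all probe sets were without overlap in this direction. These values rest in part on elevated limiting midnight replicate 1. Without it they were -0.54 for PORB, -0.33 for CHLM, -0.31 for CHLI2 and -0.14 for HEME2, each smaller in size than with all arrays and below 0. With polyadenylated controls and all arrays they were -0.46 for PORB, -0.28 for CHLM, -0.17 for CHLI2 and 0.08 for HEME2.

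At ample nitrogen the differences were smaller and every pair of groups overlapped. At midday they were -0.03 (SE 0.19) for HEME2, -0.18 (SE 0.22) for CHLI2, -0.21 (SE 0.21) for CHLM and -0.07 (SE 0.24) for PORB, where 7.17% of all probe sets had all 3 elevated arrays below the 4 ambient ones. At midnight they were -0.07 (SE 0.16), -0.33 (SE 0.18), -0.23 (SE 0.17) and -0.21 (SE 0.20) in the same order of genes, and 1.21% of probe sets were without overlap. Leaving out elevated ample midday replicate 3 turned the midday differences of HEME2 and CHLI2 to 0.14 and 0.002, and leaving out replicate 2 turned that of PORB to 0.04. The midday difference of CHLM was -0.07 without elevated ample midday replicate 3. The midnight difference of HEME2 was -0.01 without ambient ample midnight replicate 4, and those of CHLI2, CHLM and PORB were -0.19, -0.12 and -0.08 without ambient ample midnight replicate 3. With hybridisation controls all 4 midnight differences were above 0, at 0.52 for HEME2, 0.27 for CHLI2, 0.36 for CHLM and 0.38 for PORB. The midday differences of HEME2 and PORB were then 0.13 and 0.09. The midnight values of that scaling include ambient ample midnight replicate 4. Its hybridisation controls averaged 4.22, against 2.12 to 2.84 in the rest of its group. Whether the signs hold without that array under this scaling was not tested. With polyadenylated controls the midnight differences were 0.21 for HEME2, -0.05 for CHLI2, 0.04 for CHLM and 0.06 for PORB, and the midday differences of HEME2 and PORB were 0.11 and 0.07.

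**Figure D4:**
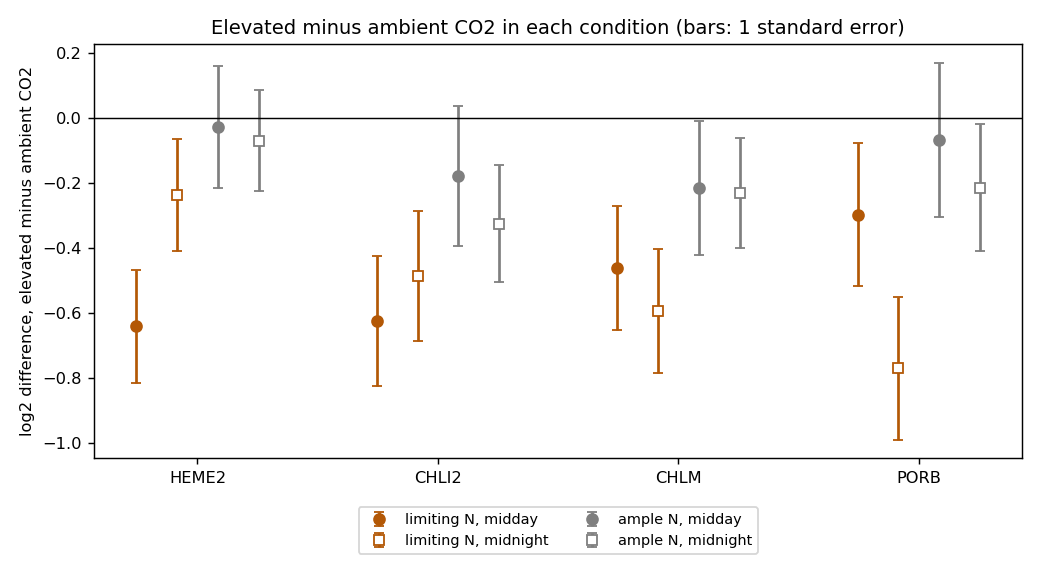
Log2 difference of elevated minus ambient CO2, with arrays scaled on their medians, for each gene in the 4 combinations of nitrogen and time, with bars of 1 standard error from limma (3 to 5 arrays a group). The values at limiting nitrogen (orange) lie between -0.77 and -0.24 and those at ample nitrogen (grey) between -0.33 and -0.03. With hybridisation controls, not plotted, the ample-nitrogen midnight values of all 4 genes are above 0. That scaling includes ambient ample midnight replicate 4, an array with high hybridisation controls, and was not run without it. No test was made of these values because the genes were chosen with CO2 results known.

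The CO2 difference at limiting minus that at ample nitrogen, averaged over time, was -0.39 (SE 0.17) for HEME2, -0.30 (SE 0.20) for CHLI2, -0.31 (SE 0.19) for CHLM and -0.39 (SE 0.22) for PORB. Without elevated limiting midnight replicate 1 it was -0.34, -0.22, -0.17 and -0.28, so that the value of CHLM fell by over 1.5 times. At midnight alone the quantity for CHLI2 was -0.16 with all arrays and 0.02 without that replicate, and for CHLM it was -0.36 with all arrays and -0.02 without both arrays that stand apart. With arrays scaled on their medians, the 6 other pathway genes showed the same sign. Their median CO2 difference averaged over time was -0.35 at limiting and -0.15 at ample nitrogen, all 6 below 0 at each supply. For the 4 genes the medians were -0.53 and -0.18, and for all probe sets -0.04 and -0.03. With median scaling the 3 midday-low genes HEMA2, GSA1 and HEMB1 were thus on the low side at elevated CO2 as well. Their average differences over nitrogen and time were -0.20, -0.16 and -0.19. With hybridisation controls and all arrays, the ample-nitrogen averages were 0.33 for HEME2, 0.12 for CHLI2, 0.15 for CHLM and 0.24 for PORB. The average of HEME2 over nitrogen and time was then 0.01. That scaling moves all probe sets of an array together, so the signs of the 6 other genes also depend on the scaling. The mesophyll markers RCA and LHCB4.2 had CO2 differences of -0.36 and -0.57 at limiting nitrogen and midnight, where the median of the 4 genes was -0.54, and of -0.04 and -0.10 at limiting nitrogen and midday, where it was also -0.54. At ample nitrogen they had -0.26 and 0.32 at midnight and -0.11 and -0.11 at midday, where the medians of the 4 genes were -0.22 and -0.12. Their part in the differences of the 4 genes was not tested.

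Ranked over the 8 groups, ambient limiting midday was highest and elevated limiting midnight lowest for each of the 4 genes. For HEME2, ambient limiting (3.13), ambient ample (3.00) and elevated ample (2.98) midday leaves did not differ beyond their pooled SD. Elevated limiting midday leaves lay below them at 2.50, and the 4 midnight groups lay lower still, between 1.70 and 2.00. Elevated limiting midnight leaves lay below elevated ample ones by 0.227, just over the pooled SD of 0.218. CHLM also had its 4 midday groups on top, from 4.82 to 4.36, over 4 midnight groups from 4.01 to 3.42. Its step between the times was 0.345 (pooled SD 0.218). Its steps from ambient limiting to ambient ample midday (0.134, pooled SD 0.078) and on to elevated ample midday (0.215, pooled SD 0.194) also exceeded the spread. PORB had the same split, from 3.43 to 3.13 at midday and from 3.04 to 2.27 at midnight, but the step between elevated limiting midday and ambient limiting midnight, 0.09, was smaller than the pooled SD of 0.29. CHLI2 mixed the times: elevated limiting midday leaves (1.09) ranked below ambient ample (1.36) and ambient limiting (1.24) midnight leaves, and no neighbours in its order differed beyond their pooled SD.

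Within groups, CHLI2 deviated together with HEME2 and with CHLM from array to array. After the mean of each of the 8 groups was taken off, 7 of 33 arrays had all 4 genes below their group means and 6 had all 4 above. Elevated limiting midnight replicate 1 was low in all, by -0.29 for HEME2, -0.53 for CHLI2, -0.79 for CHLM and -0.68 for PORB, and elevated limiting midday replicate 4 was high in all, by 0.35, 0.43, 0.38 and 0.37.

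Over the 33 arrays the deviations of CHLI2 correlated with those of CHLM (Pearson r = 0.76, adjusted p = 0.00081, Spearman rho = 0.75, adjusted p = 0.00084) and with those of HEME2 (r = 0.74, adjusted p = 6e-04, rho = 0.67, adjusted p = 0.00093), by permutation within groups with adjustment over the 6 pairs. Both held within each time, at 0.75 and 0.77 in midday arrays and 0.78 and 0.72 in midnight arrays, and without the 2 arrays farthest from the median (of CHLI2 for the pair with CHLM, of HEME2 for the other), at 0.76 and 0.66. HEME2 and PORB had r = 0.58 (permutation adjusted p = 0.0124, rho = 0.54, adjusted p = 0.0183), and r = 0.48 without the 2 arrays farthest from the median of HEME2. Without elevated limiting midday replicate 1 it had r = 0.49 and no longer passed (permutation adjusted p = 0.0502). The other 3 pairs did not hold up. HEME2 with CHLM (r = 0.45, rho = 0.39), CHLI2 with PORB (r = 0.48, rho = 0.34) and CHLM with PORB (r = 0.52, rho = 0.29) had permutation adjusted p of 0.0455, 0.0455 and 0.0481 for r and of 0.0966, 0.126 and 0.183 for rho. Without elevated limiting midnight replicate 1 their r fell to 0.37, 0.34 and 0.29, none past the threshold. The raw p of these 6 tests of r lay between 1e-04 and 0.0481. Genes of an array share its RNA and hybridisation. Among all probe sets, 0.36% correlated with HEME2 at least as closely as CHLI2 did, 0.73% with CHLI2 at least as closely as CHLM did, and 3.88% with HEME2 at least as closely as PORB did.

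**Figure D5:**
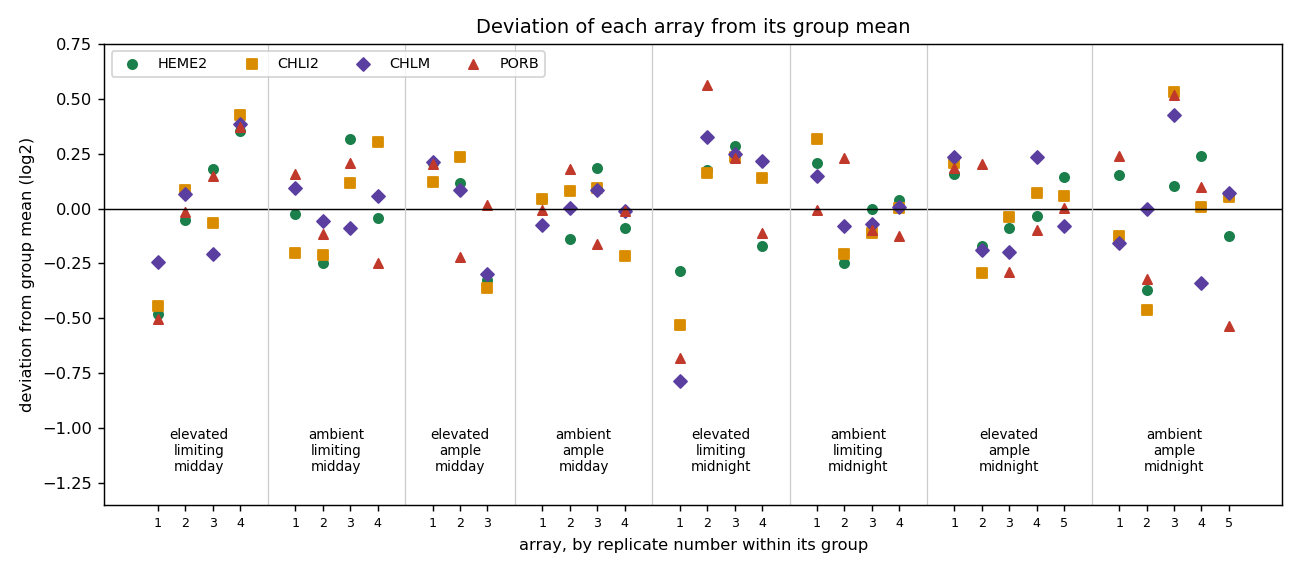
Deviation of HEME2, CHLI2, CHLM and PORB from their group means (log2) in each of 33 arrays, with groups side by side and arrays ordered by replicate number within a group, an order without meaning. Elevated limiting midnight replicate 1 is low and elevated limiting midday replicate 4 high in all 4 genes, and in 13 arrays in all the 4 genes lie on the same side of 0.

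The genes most like each of the 4 were searched among 6831 genes by Pearson's r over 33 arrays after the means of the midday and the midnight arrays were taken off. These r values describe these arrays and carry no test. They keep the differences between growth conditions, among them the CO2 differences known when the genes were chosen. For HEME2 the closest was HEME1, the other decarboxylase gene, with r = 0.86 (0.97 over the raw values), followed by AT3G60370 (0.83) and AT3G15520 (0.82). For CHLI2 they were AT5G52970 (0.93), AT5G10690 (0.90) and AT4G01310 (0.89). CHLM was most like AT3G23700 (0.87), AT1G02150 (0.87) and AT1G18060 (0.87), and PORB was most like AT4G00750 (0.82), AT1G74910 (0.80) and AT2G34620 (0.77). The tables used here give these loci no gene name apart from HEME1. Likeness in this sense did not require a like time difference: AT3G23700 differed by 0.04 between midday and midnight and AT1G18060 by 1.84, while CHLM differed by 0.82.

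Measured the same way, HEME1 was close to CHLI2 (0.87), CHLM (0.78) and PORB (0.72) as well as to HEME2, and AT1G74470, the geranylgeranyl reductase gene, was close to CHLM (0.80), CHLI2 (0.75) and PORB (0.74). HEMA2, from the start of the pathway, had the lowest r of the pathway genes with each of the 4, between 0.29 and 0.36. With the means of all 8 groups taken off, HEMA2 stayed lowest for HEME2 (0.15) and CHLI2 (0.14) only. The lowest was then HEMB1 for CHLM (0.07, HEMA2 0.15) and NOL for PORB (0.16, HEMA2 0.23). HEMB1 and GSA1 were closer to HEME2 (0.74 and 0.67) and CHLI2 (0.71 and 0.69) than to CHLM (0.38 and 0.40) and PORB (0.48 and 0.43).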

How the data were processed

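Biotin-labelled target made from leaf RNA with a 3′ IVT kit was read on Affymetrix arrays, per the labels' protocols. The deposited table holds log2 values by the authors for 12826 probe sets, 54 of them controls, with each array's median at 0. How the probes were background-corrected and summarised is not given in the sources used here. Probe sets were named from the platform's annotation, with symbols updated from a table of TAIR10.1 genes: 6898 of 12772 name 1 gene, 272 several and 5602 none; the deposited values carry no coordinates.

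The members, gene lists, tests and alternatives were chosen with earlier results of these data known. Groups came from the sample titles. A linear model with 8 group means and no block was fitted over the 33 arrays with limma 3.58.1 (R 4.3.3); p-values were adjusted by Benjamini-Hochberg over 12772 probe sets within each contrast and called below 0.05. No 2 arrays held identical values. Pairs of genes were compared by 100000 permutations within conditions or groups (10000 for the alternatives). Named genes are the 4 members, the other measured genes of the pathway lists, and the 3 genes most like each member. The fit was tested on simulated data. Alternatives were quantile normalization, no dim probe sets (30% removed), array weights, eBayes with trend and robust, only the groups compared, a replicate block, an adjusted p under 0.01, each array left out, and, chosen after seeing the data, both arrays that stand apart left out and scaling on hybridisation or polyadenylated controls.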

Additional observations from a re-analysis of the deposited data

Results flagged for a closer look

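In 28 sets of 4 or 5 arrays (a group and 1 of the 4 genes), 3 values lay far from the rest of their group by Dixon's 95% criterion, which chance alone meets in about 1 in 20 groups. CHLI2 in elevated limiting midnight replicate 1 was 0.23, where the nearest of the other 3 arrays was 0.90 (gap over range 0.874). CHLM in the same array was 2.63, where the nearest was 3.63 (0.902). CHLI2 in ambient ample midday replicate 4 was 1.45, where the nearest was 1.72 (0.845). HEME2 and PORB were also lowest in elevated limiting midnight replicate 1 without meeting the criterion. The 3′ to 5′ log2 ratio of that array was 1.72, against 1.96 to 2.00 in the other 3 arrays of its group, and its hybridisation controls averaged 1.75, against 1.97 to 2.16; their part in its low values was not tested.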

How the results depend on the processing

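The 4 genes' average time differences passed under every alternative run except scaling on hybridisation controls, where HEME2 alone passed. Scaling on those controls was run only with ambient ample midnight replicate 4 included. Members called at midday moved from 2 to 1 at ambient limiting under quantile normalization, to 4 at elevated ample and 4 at ambient limiting with array weights, to 4 at ambient limiting with only the arrays compared, and to 1 at elevated ample and 4 at ambient limiting with polyadenylated controls. With hybridisation controls they were 1 in the average, 0 at elevated limiting, 0 at elevated ample, 0 at ambient limiting and 1 at ambient ample. That scaling turned the time difference of HEME2 to -0.039 at elevated limiting; of CHLI2 to -0.18 in the average, -0.50 at elevated limiting, -0.12 at elevated ample and -0.27 at ambient limiting; and of PORB to -0.031 in the average, -0.042 at elevated ample and -0.36 at ambient limiting. It turned nitrogen differences to 0.05 (average) and 0.28 (midnight) for HEME2, 0.021 and 0.23 for CHLI2, 0.16 and 0.32 for CHLM and 0.36 (midnight) for PORB, and the nitrogen by time difference to -0.41 for CHLI2, -0.32 for CHLM and -0.27 for PORB. None of these reversed values passed the threshold.

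The untested CO2 differences at ample nitrogen also changed sign with hybridisation controls (all 4 genes at midnight, HEME2 and PORB at midday) and polyadenylated controls. The midnight values with hybridisation controls include ambient ample midnight replicate 4 (control mean 4.22), and that scaling was not run without it. Other reversals of tested values were of nitrogen values, most of them near 0. Quantile normalization gave CHLM 0.021 (average) and 0.006 (midnight) and PORB 0.005 (midnight). Array weights gave -0.027 for CHLM at midday and 0.085 for PORB at midnight, and nitrogen by time values of -0.106 for CHLI2, -0.011 for CHLM and -0.003 for PORB. Without both arrays that stand apart CHLI2 had -0.072 (by time) and PORB 0.063 (midnight). Polyadenylated controls gave HEME2 0.22 (by time) and PORB -0.015 (average). With single arrays left out the ranges were -0.072 to 0.092 (CHLI2), -0.114 to 0.048 (HEME2) and -0.02 to 0.165 (CHLM) by time; -0.082 to 0.021 (CHLM) and -0.03 to 0.074 (PORB) in the average; -0.064 to 0.064 (CHLM) at midday; and -0.154 to 0.031 (CHLM) and -0.157 to 0.051 (PORB) at midnight. Members called were then 4 in the time average, 3 at elevated limiting, 2 to 3 in the other conditions and 0 for nitrogen.

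Deviations of same-numbered elevated and ambient arrays had r over all probe sets between -0.28 and 0.31 (median 0.02). Of these pairs 7 of 16 lay over 0.1, against 12 of 53 differently numbered pairs (median 0.01). The counts were 3 of 15 against 9 of 50 between nitrogen supplies, and 1 of 15 against 9 of 52 between times. Such correlations cannot exclude pairing by number, and the main fit used no block. With the replicate block 4, 3, 2, 2 and 2 members were called by time and 0 by nitrogen, as without it. Probe sets called by time were then 8093 in the average, 4419 at elevated limiting, 4038 at elevated ample, 4466 at ambient limiting and 4910 at ambient ample. The nitrogen values were -0.002 (CHLM, midday), -0.013 (PORB, average) and -0.014 (CHLI2, by time).

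Differences between genes' time differences kept their sign throughout. With quantile normalization HEME2 minus CHLM passed at 0.346 and CHLM minus PORB did not at 0.147; without both arrays HEME2 minus CHLM passed at 0.27, and with single arrays left out it ranged from 0.16 to 0.23. Correlations of deviations that no longer passed were, under quantile normalization, 0.35 (HEME2 with CHLM), 0.45 (CHLI2 with PORB) and 0.535 (CHLM with PORB), and without both arrays 0.34 and 0.35 for the last 2 pairs. With single arrays left out the 4 weaker pairs ranged from 0.37 to 0.55 (HEME2 with CHLM), 0.49 to 0.64 (HEME2 with PORB), 0.34 to 0.55 (CHLI2 with PORB) and 0.29 to 0.59 (CHLM with PORB).

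Counts over all probe sets moved by over 1.5 times for nitrogen: 180 in the average, 29 at midday, 176 at midnight and 13 by time became 805, 483, 308 and 37 with array weights, 67, 14, 88 and 1 at an adjusted p under 0.01, 60, 5, 408 and 0 with hybridisation controls and 51, 10, 84 and 6 with polyadenylated controls. The count by time was 2 with the block, and that at midnight was 117 with only the arrays compared. Single arrays left out gave 104 to 325, 18 to 47, 129 to 213 and 1 to 16. For time, 4259 became 2781 at elevated ample under an adjusted p of 0.01; 4481 and 5185 became 7409 and 2428 at elevated limiting and ambient ample with hybridisation controls, and 2377 and 3074, with 2287 at elevated ample, with polyadenylated controls. The causes were not tested.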
